A study of Rattus norvegicus with 14 samples.

Results

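The genes of mitochondrial oxidative phosphorylation were followed in the choroid plexus (CP) of gonadectomized and sham-operated rats. They were taken by symbol, as every named gene that begins with Ndufa, Ndufb, Ndufc, Ndufs, Ndufv, Sdha to Sdhd, Uqcr, Cox4 to Cox8 or Atp5. The search found 85 of 15154 named genes, of which 38 belong to complex I, 6 to complex II, 8 to complex III, 18 to complex IV and 15 to complex V. It also takes in 8 assembly factors, which help to build a complex without staying in it, 2 copies of subunit genes (Ndufa10l1 and Cox6c-ps1), the supercomplex factor Cox7a2l and the inhibitor Atp5if1. The rats were Wistar animals of 2 months ± 2 weeks at surgery, and no transgene or drug treatment is named. The CP of both lateral ventricles was collected 2 weeks after ovariectomy (OVX), orchidectomy (OOX) or a sham operation. For collection the paper names anesthesia of castrated animals with ketamine and medetomidine. Each 1-colour array carried RNA pooled from 3 animals, with 3 pools of OVX and 3 of sham females, and 4 each of OOX and sham males, or 14 arrays in all. The question of each comparison was what the loss of the gonads changes in the CP of that sex, and gonadectomy takes away the gonad with all its hormones. The methods name fewer male pools than the labels do. In either sex, the animals listed for a group in the hormone measurements would fill neither 3 nor 4 separate pools of 3. Whether an animal gave RNA to more than 1 pool is not stated, so the p-values measure the spread between pools, which may in part be technical.

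Oxidative phosphorylation turns the electrons of NADH and succinate into ATP. Complex I takes electrons from NADH, complex II from succinate, complex III passes them from ubiquinol to cytochrome c, complex IV hands them to oxygen, and complex V uses the proton gradient to make ATP. The CP epithelium secretes cerebrospinal fluid by active ion transport and is rich in mitochondria. Most subunits have 1 form, but complex IV has subunits with tissue isoforms, such as the heart and muscle forms Cox6a2 and Cox8b, the lung form Cox4i2 and the testis form Cox6b2. All genes described here are nuclear genes, since the mitochondrial genome's own subunits do not carry these names.

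Levels are given as the log2 background-subtracted signal minus the median of the array, so that 0 is the typical probe, and a difference of 1 is a doubling. Many of these genes were at the top of the range of the array: of 86 named genes saturated on every array 13 were among them, and no difference is given for these: Cox4i1, Cox6a1, Cox6c, Cox8a, Ndufb8, Uqcr10, Uqcrh, Atp5f1a, Atp5f1e, Atp5mc1, Atp5me, Atp5pb and Atp5po. They include the main isoforms of complex IV subunits and the catalytic alpha subunit of ATP synthase. Of the other 72, 24 were saturated on some arrays, where a level is a lower bound, and 48 on none. The testis-type Cox8c was well above background on no array and has no fold, and the other 71 were well above background on all 14. Markers of CP epithelium were present in every pool, with 17 of 17 measured. Of these 7 (among them Ttr and Folr1) were saturated on every array and the other 10 well above background on every array. These markers do not show how pure the tissue was.

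1 library stood apart from its group before any comparison. The level of the 72 genes in a pool was summarized as the median, over genes, of the log2 level minus the gene's mean over all arrays. It was 0.24, 0.20 and 0.07 in the sham female pools and 0.07, -0.14 and -0.19 in the OVX pools. It was -0.18, 0.17, -0.04 and 0.16 in the sham male pools and -0.06, -0.45, 0.05 and 0.10 in the OOX pools. OOX pool 2 was thus the lowest of all, and it held the lowest level of all 14 pools for 58 of the 72 genes. Sham female pools 1 and 2 were the highest, and OVX pool 1 was level with sham female pool 3, with which it shared a slide. The group means were 0.17 ± 0.09 (SD, n = 3) in sham females, -0.09 ± 0.14 (SD, n = 3) in OVX, 0.03 ± 0.17 (SD, n = 4) in sham males and -0.09 ± 0.25 (SD, n = 4) in OOX. Without pool 2 the OOX mean was 0.03 ± 0.08 (SD, n = 3). The spread between pools of 1 group was therefore as large as the distance between groups in males, and the female groups touched at their edges.

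**Figure D1:**
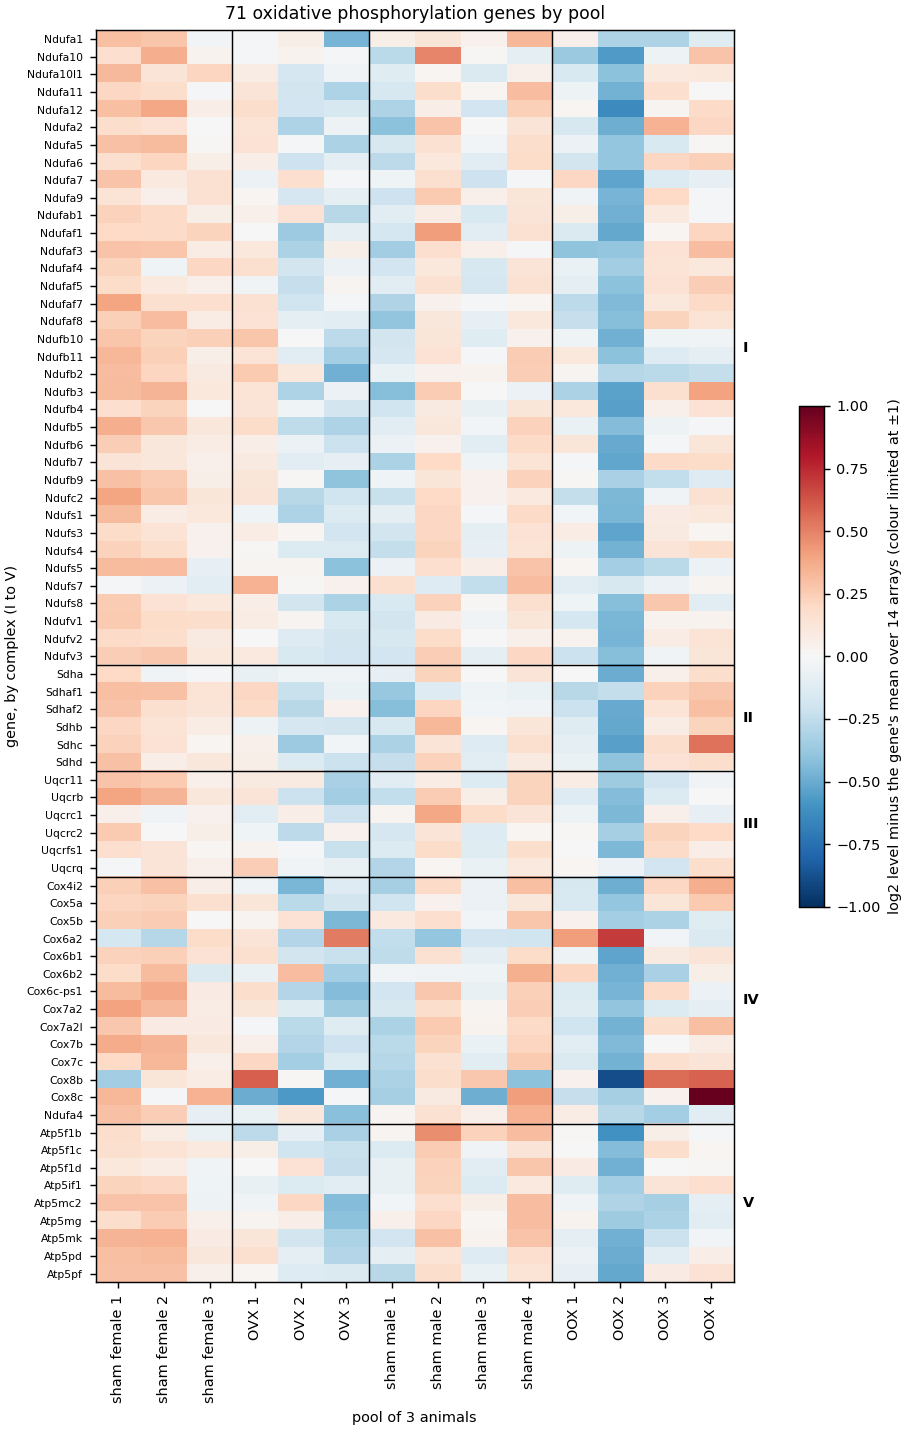
Log2 level of 71 of the 72 genes (rows, by complex) in each of the 14 pools (columns, by group) minus the gene's mean over all arrays, with colours limited at 1 either way. Columns change colour nearly as a whole: OOX pool 2 is blue for most genes, sham female pools 1 and 2 are red, and Cox6a2, Cox8b, Cox8c and Ndufs7 depart from the column pattern.

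In females, no gene of oxidative phosphorylation passed the test, and most had slightly lower means after OVX. Of 72 genes, 69 had a mean below that of sham females, where 58.3% of all 15068 genes did, and the median difference was -0.26 on the log2 scale, or 16.3% lower, against -0.07 over all genes. At an adjusted p under 0.05 (limma with Benjamini-Hochberg adjustment over all genes and unnamed probes), 0 of the 72 were called, where 6.25% of all genes were called in either direction, 1.83% higher and 4.43% lower. That background count was itself unsteady: 942 genes were called with all pools, 950 without sham female pool 2, and 2 to 16 without any other pool. At an unadjusted p under 0.05, 0 were higher and 5 lower (Cox8c, Cox7b, Cox4i2, Ndufaf1 and Uqcrb), where 9.30% of all genes were higher and 10.8% lower. The test that the methods name gave 0 higher and 16 lower at that threshold, where it gave 7.83% of all genes higher and 10.8% lower, and 0 of the 72 after adjustment. The OVX pools lay wholly below the sham pools for 26 genes and wholly above for 1, where this held for 16.3% and 11.5% of all genes. Of the 26, 20 were among the 47 detected genes that saturated on no array.

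The lower means were spread over the complexes. Complex I had 36 of 37 genes below 0 with a median difference of -0.25, complex II 6 of 6 with -0.25, complex III 6 of 6 with -0.19, complex IV 12 of 14 with -0.29 and complex V 9 of 9 with -0.27. By role, the 16 core subunits measured, which carry redox centres or form the rotor and catalytic head, had a median of -0.25, and the 39 accessory subunits had -0.27. The 8 assembly factors had -0.24, and the roles were not tested against each other. The 24 genes with saturation on some arrays had -0.29 and the 48 with none -0.24. No gene differed by more than 1.5-fold. For the 47 detected genes that saturated on no array, the 95% intervals all lay within 2-fold either way and 26 of them within 1.5-fold. These intervals cover the spread between pools and not a batch that goes with the group. None is given as a limit for saturated genes, whose levels are lower bounds on some arrays. Where the group with the lower mean holds more of these arrays, the difference can read too large, and in the opposite case too small.

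Cox7b, a small accessory subunit of complex IV, had the smallest p among the genes above background. Its level was 8.26, 8.23 and 8.01 in the sham female pools and 7.94, 7.59 and 7.68 in the OVX pools. The groups did not overlap, with OVX pool 1 just under sham pool 3. The difference was -0.43 ± 0.15 (SE), with an adjusted p of 0.157 in the limma fit. Between the pools that shared a slide it was -0.07. Cox7b was saturated on 3 arrays, 1 of OVX and 2 of OOX, and on 0 sham arrays, so that its OVX mean is a lower bound.

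Cox4i2, the isoform of subunit 4 that replaces the common Cox4i1 in lung and in oxygen-sensing cells, was next. It read 4.77, 4.83 and 4.60 in sham females and 4.49, 4.08 and 4.40 after OVX. All OVX pools were below all sham pools, by -0.41 ± 0.16 (SE), adjusted p = 0.190 by limma. Uqcrb, which binds ubiquinone in complex III, read 8.47, 8.42 and 8.19 in sham females and 8.21, 7.86 and 7.72 in OVX. The groups overlapped at their edges, the difference was -0.43 ± 0.17 (SE), and the limma adjusted p was 0.208. Its probe was saturated on 2 OVX arrays and 0 sham female arrays, so that its OVX mean is a lower bound. The other probe of Uqcrb, saturated on no array, gave -0.45. Ndufaf1, an assembly factor of complex I, read 0.79, 0.78 and 0.81 in sham females and 0.58, 0.22 and 0.50 after OVX. Its sham pools were tight, and the difference of -0.36 ± 0.14 (SE) had an adjusted p of 0.191 by limma.

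Catalytic subunits and other genes of complexes I, II, III and V also had lower means, with differences from -0.38 to -0.10. Ndufs1, the largest iron-sulfur subunit of complex I, was at 7.40, 7.15 and 7.19 in sham females and 7.04, 6.77 and 6.94 in OVX, which do not overlap, for a difference of -0.33 ± 0.14 (SE). Ndufv1, which holds the flavin where NADH is oxidized, differed by -0.22 ± 0.12 (SE), also without overlap. In complex II, Sdhb, the iron-sulfur subunit of succinate dehydrogenase, differed by -0.27 ± 0.12 (SE) and the membrane anchor Sdhd by -0.26 ± 0.14 (SE), again with no overlap. The flavoprotein Sdha differed by only -0.11 ± 0.12 (SE): its OVX pools lay between 7.23 and 7.27, just under the lowest sham pool of 7.27. In complex III the Rieske protein Uqcrfs1 differed by -0.18 ± 0.13 (SE), Uqcr11 by -0.25 ± 0.16 (SE) and the core protein Uqcrc1 by -0.10 ± 0.13 (SE), and the groups overlapped for each of them. In complex V the catalytic beta subunit Atp5f1b read 7.69, 7.59 and 7.44 in sham females and 7.25, 7.43 and 7.19 in OVX. Its highest OVX pool lay just under its lowest sham pool, and the difference was -0.28 ± 0.13 (SE). The membrane-sector subunits Atp5mk and Atp5pf differed by -0.38 ± 0.16 (SE) and -0.30 ± 0.13 (SE), and Atp5if1, which blocks ATP hydrolysis by the enzyme, by -0.24 ± 0.13 (SE). The limma adjusted p was between 0.230 and 0.691 for all genes of this paragraph. Ndufv1 and Uqcr11 were each saturated on 1 OVX array and 0 sham female arrays, and Atp5mk on 2 arrays of each female group.

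3 genes ran the other way in females. Ndufs7, an iron-sulfur subunit at the end of the electron path of complex I, read 6.44, 6.40 and 6.35 in sham females and 6.81, 6.47 and 6.50 in OVX. It was the 1 gene of the 72 whose OVX pools were all above its sham pools, with a difference of 0.20 ± 0.14 (SE) and an adjusted p of 0.462 by limma. Cox6a2, the heart and skeletal muscle form of subunit 6a, read -1.37, -1.48 and -1.002 in sham females and -1.06, -1.48 and -0.67 in OVX. These groups overlapped fully, and the difference of 0.21 ± 0.24 (SE) was below its own error. Cox8b, the heart and muscle form of subunit 8, was at 6.19, 6.65 and 6.61 in sham females and 7.13, 6.55 and 6.06 in OVX. The OVX pools spanned the whole sham range, and the difference was 0.09 ± 0.30 (SE). Its sign changed without OVX pool 1, where it was -0.18.

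**Figure D2:**
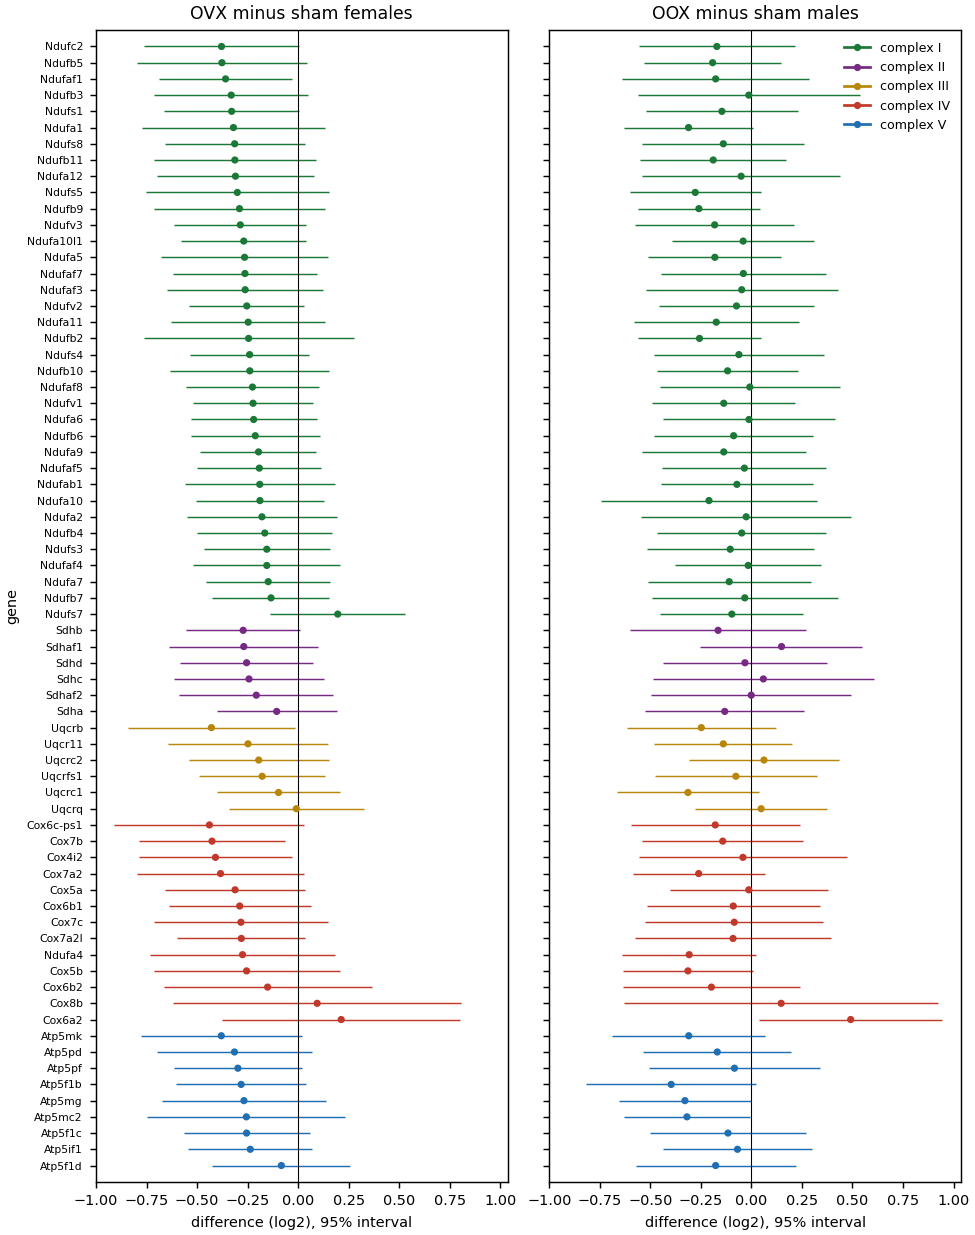
Difference of group means (log2, points) with 95% intervals of the limma fit (lines) for 70 genes, coloured by complex, in females (left) and males (right). Nearly all points lie left of 0, while the intervals hold 0 for all but Cox7b, Cox4i2, Ndufaf1 and Uqcrb in females and all but Cox6a2 and the mostly saturated Atp5mc2 and Atp5mg in males. Cox8c, which was not above background, is among the 2 genes left out.

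The female shift was smaller within batches. OVX pool 1 and sham female pool 3 are the only female pools of both groups on 1 slide, and between them the median difference of the 72 genes was 0.01, with 33 below 0. The fit with the slide as a block rests on that same pair. OVX pool 1 shared its scan day with all 3 sham pools, and the fit with the scan day as a block, which sets it against them, gave -0.11 with 61 of 72 below 0. Each of these values rests on 1 OVX pool, the highest of the 3. The sham pools were all scanned on day 1 and 2 of the 3 OVX pools on day 2, so for these the group and the batch cannot be told apart. Quantile normalization brought the median to -0.08 with all genes at -0.01. Over the 14 arrays the level of these genes went opposite to the share of spots well above background, which ran from 79.7% to 87.2%: r was -0.67 and Spearman's rho -0.70, with permutation p-values of 0.00404 and 0.00662 (adjusted over 5 relations and both measures, 0.00577 and 0.00827). Without the 2 arrays farthest out on that share r was -0.56, and within the 10 arrays of scan day 2 it was -0.61 (permutation p = 0.0399). The permutations keep neither the groups nor the slides together, and the part of this in the group differences was not tested. The share of spots can move with the array median, which each level has subtracted, so that the relation may in part be built in.

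In males, no gene passed the test either, and the differences were smaller. Of the 72 genes, 65 had a lower mean after OOX, where 46.7% of all genes did, and the median difference was -0.11, or 7.5% lower, against 0.02 over all genes. 0 were called, where the test called 0.0863% of all genes. At an unadjusted p under 0.05, 1 was higher (Cox6a2) and 2 lower (Atp5mc2 and Atp5mg, both saturated on 11 arrays), where 4.35% of all genes were higher and 2.02% lower. The test of the methods gave 0 higher and 8 lower, where it gave 3.74% of all genes higher and 2.96% lower, and 0 of the 72 after adjustment. The OOX pools lay wholly above the sham pools for 1 gene, Cox6a2, and wholly below for 1, the saturated Atp5mc2, where 2.46% of all genes lay wholly higher and 1.57% wholly lower. Among the 47 detected genes that saturated on no array 0 lay wholly lower. The median rested on OOX pool 2: without that pool it was 0.01, with 35 of 72 below 0, while leaving out any other male pool gave -0.18 to -0.06. With the slide as a block the median was 0.09, against 0.11 for all genes. That fit rests on OOX pool 4, the highest OOX pool, against sham male pools 1 and 2. No other slide held both male groups, so for the other pools group and slide cannot be told apart. It was -0.02 with quantile normalization (43 of 72 below 0), -0.02 with array weights (38 below 0) and -0.04 with normexp background correction (45 below 0). For the 47 detected genes without saturation, all intervals lay within 2-fold and 37 within 1.5-fold.

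**Figure D3:**
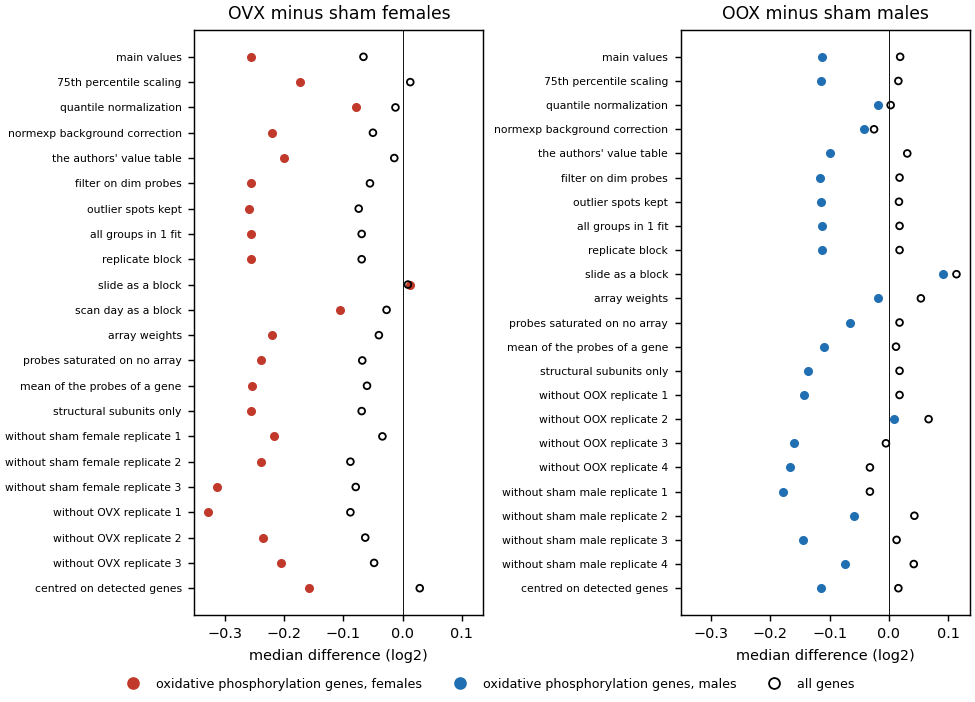
Median difference (log2) of the 72 oxidative phosphorylation genes (filled; 71, 60 or 54 with dim probes, non-structural genes or saturated probes left out) and of all genes (open) under each processing setting, in females (left) and males (right). The filled points of females lie left of the open ones except with the slide as a block, where both are near 0, and those of males cross 0 with the slide as a block and without OOX pool 2.

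By complex, the male medians were -0.11 for complex I with 37 of 37 below 0, -0.02 for complex II with 4 of 6, -0.11 for complex III with 4 of 6, -0.09 for complex IV with 11 of 14 and -0.18 for complex V with 9 of 9. Assembly factors had -0.03 and core subunits -0.14. The 24 genes that saturated on some arrays had -0.19 and the 48 others -0.07. The 13 genes saturated on every array read -0.36 to -0.27 in males and -0.25 to -0.12 in females, values that hold the scaling of the arrays and no level. A difference of that size in a gene saturated on most arrays was therefore not read as one.

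The lowest male difference was that of Atp5f1b, the catalytic beta subunit of ATP synthase, which saturated on no array. It read 7.54, 7.98, 7.75 and 7.82 in the sham male pools and 7.53, 6.91, 7.57 and 7.49 in the OOX pools. OOX pool 2 was far below the rest. Of the other OOX pools 1 lay within the sham range and the remaining ones just below it, and the difference was -0.40 ± 0.19 (SE) with an adjusted p of 0.672 by limma. Atp5mc2, 1 of the genes for the c subunit of the rotor ring, and Atp5mg, of the membrane sector, had the largest test statistics on the lower side of complex V. Both were saturated on 11 arrays, 3 of 4 in each male group, so that their order among pools is mostly that of the array medians, and no difference is given.

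The same holds for the genes with the largest test statistics on the lower side of complexes I and IV. Ndufa1, a membrane subunit of complex I, was saturated on 12 arrays and Ndufb9 on 11, and in complex IV Cox5b was saturated on 10 and Ndufa4, a subunit named for complex I, on 12. Uqcrc1, a core protein of complex III, which was saturated on none, read 6.54, 6.89, 6.70 and 6.64 in sham males and 6.46, 6.06, 6.56 and 6.43 in OOX. Its highest OOX pool lay just above its lowest sham pool, and the difference was -0.31 ± 0.15 (SE). Uqcrb, saturated on 5 arrays, differed by -0.25 ± 0.16 (SE), and its second probe had the opposite sign. Sdhb differed by -0.17 ± 0.19 (SE) and Sdha by -0.13 ± 0.17 (SE). On the higher side, the assembly factor Sdhaf1 differed by 0.15 ± 0.18 (SE), the membrane anchor Sdhc by 0.06 ± 0.24 (SE), the core protein Uqcrc2 by 0.06 ± 0.16 (SE) and Uqcrq by 0.05 ± 0.14 (SE), all within their error. Among other catalytic subunits Ndufs1 differed by -0.15 ± 0.17 (SE), Ndufv1 by -0.14 ± 0.16 (SE) and Uqcrfs1 by -0.08 ± 0.18 (SE), and the inhibitor Atp5if1 by -0.07 ± 0.16 (SE). The limma adjusted p of the genes in this paragraph was 0.659 or more.

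**Figure D4:**
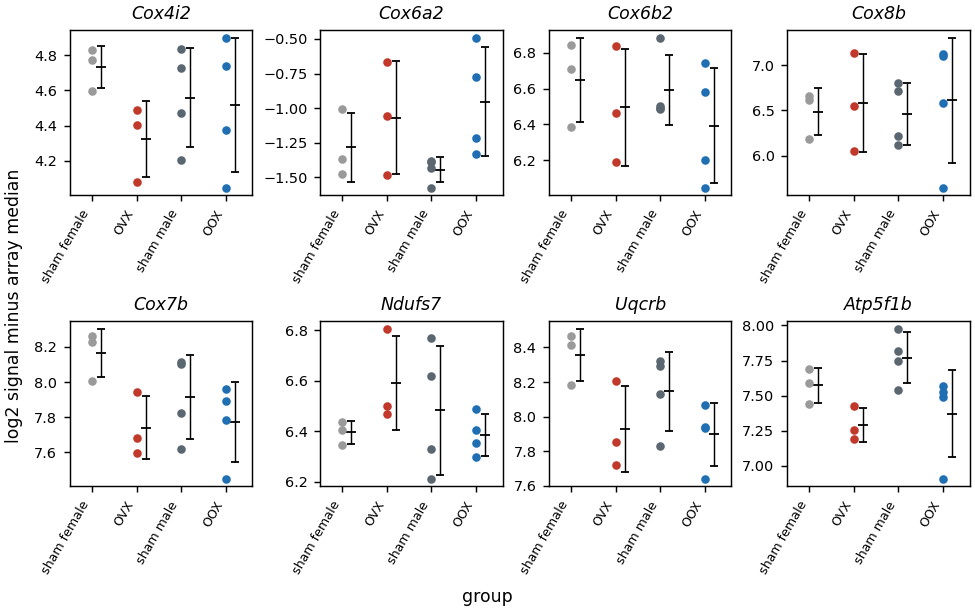
Log2 signal minus the array median (vertical axes, which differ in range) of 8 genes in each pool, by group, with the mean and SD beside the points. Sham male pools of Cox6a2 are tight and below all OOX pools, Cox8b spreads most within groups, and OOX pool 2 is the lowest point of Atp5f1b.

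The tissue isoforms of complex IV did not move as a block. Cox6a2 read -1.43, -1.57, -1.38 and -1.39 in sham males and -0.77, -0.49, -1.21 and -1.33 in OOX. Each OOX pool was above each sham pool, OOX pool 4 only just, and the difference of 0.49 ± 0.20 (SE) had an unadjusted p of 0.0374 and an adjusted p of 0.655 by limma. The 2 highest OOX pools shared a slide with no sham male pool, and within the slide that held both groups the difference was 0.17. Cox4i2 read 4.20, 4.73, 4.47 and 4.83 in sham males and 4.38, 4.05, 4.74 and 4.90 in OOX, with full overlap and a difference of -0.04 ± 0.23 (SE). Cox8b read 6.22, 6.71, 6.81 and 6.12 in sham males and 6.58, 5.65, 7.10 and 7.13 in OOX, a spread among OOX pools of 0.69 (SD) against a difference of 0.15 ± 0.34 (SE). Cox6b2 read 6.50, 6.49, 6.49 and 6.88 in sham males and 6.74, 6.05, 6.20 and 6.58 in OOX, and differed by -0.20 ± 0.19 (SE). In females it differed by -0.15 ± 0.21 (SE). The common forms gave -0.29 ± 0.15 (SE) in females and -0.09 ± 0.19 (SE) in males for Cox6b1, and -0.38 ± 0.17 (SE) and -0.26 ± 0.14 (SE) for Cox7a2, while Cox7a2l, which joins complexes III and IV, gave -0.28 ± 0.13 (SE) and -0.09 ± 0.21 (SE). Cox7a2 was saturated on 1 OVX, 1 sham male and 2 OOX arrays, and on 0 sham female arrays. Its other probe, saturated on no array, gave -0.315 in females and -0.071 in males. Cox8c, at the floor of the arrays, read between -6.67 and -4.85 in all pools.

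The male effect was set against the female effect in 1 test over all pools. The male minus the female difference had a median of 0.13 over the 72 genes against 0.08 over all genes, and 12 were below 0, where 41.5% of all genes were. 0 of 72 were called by limma, where 0.252% of all genes were called, 0.186% higher and 0.0664% lower. At an unadjusted p under 0.05 there were 0 as well, where 6.42% of all genes were higher and 3.94% lower. The largest difference among detected genes was that of Sdhaf1, 0.42 ± 0.24 (SE), with an adjusted p of 0.553. Cox4i2 gave 0.37 ± 0.30 (SE), Ndufs7 -0.29 ± 0.21 (SE) and Cox6a2 0.28 ± 0.32 (SE). The intervals lay within 2-fold for 68 of 72 genes, saturated ones included, and the other 4 were Cox4i2, Cox8b, Cox8c and Ndufb3. For the 24 genes saturated on some arrays the interval is again not a limit, since their levels are lower bounds there. A lower mean in both sexes was found for 64 genes and a higher mean in both for 2, Cox6a2 and Cox8b.

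Across the 14 pools the genes varied together. As a description, the Pearson correlation of a gene with the median of the other 71 had a median of 0.88 and was over 0.8 for 49 of 72. The points share the array and its scaling, and no p is given. Cox6b1 (0.98), Atp5pf (0.98) and Ndufs4 (0.97), an accessory subunit next to the NADH module, were nearest to the common course. At the other end, Cox6a2 was the only gene below 0 (-0.64), and Ndufs7 (0.18), Uqcrq (0.47), Cox8c (0.50), Cox8b (0.51) and Cox6b2 (0.56) were loosely tied. Of these, Cox6a2, Cox8b, Cox8c and Cox6b2 are tissue isoforms, with Cox8c not above background, while the tissue isoform Cox4i2 was at 0.88, the median of all. When each array was centred on the 72 genes themselves, a choice added after seeing the data, none was called.

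Promoters of 75 of the 85 genes were found in the RefSeq table of assembly GRCr8, each with 250 bases before and 50 after the gene's start. They were searched on both strands for letters of factors known for nuclear genes of mitochondria: NRF1 (GCGCATGCG), YY1 (AAGATGGC), the ETS factors that include GABP (CCGGAAG) and ERR (TCAAGGTCA). NRF1 letters were in 10.7% of these promoters and in 2.03% of all 19005 promoters of protein-coding genes, YY1 letters in 17.3% and 3.92%, ETS letters in 32.0% and 11.2%, and ERR letters in 1.33% and 0.353%. Of the 12373 promoters whose gene was measured here, 2.34%, 4.07%, 13.1% and 0.218% held them. At least 1 of the motifs was in 46.7% of the members' promoters and in 18% of those of measured genes. The NRF1 letters are nearly their own reverse complement, so that 1 site can match on both strands, shifted by a base. 4 promoters are shown, because between them they hold every motif and belong to genes described above; capitals mark the matches. Uqcrc1 (chr8:118467973-118468272, plus strand) has NRF1 and YY1 letters, Atp5pf (chr11:37375052-37375351, minus strand) YY1 and ETS, Sdhd (chr8:59850592-59850891, minus strand) ETS and ERR, and Ndufs7 (chr7:10110449-10110748, minus strand), the gene least tied to the others after Cox6a2, YY1 alone.
Uqcrc1: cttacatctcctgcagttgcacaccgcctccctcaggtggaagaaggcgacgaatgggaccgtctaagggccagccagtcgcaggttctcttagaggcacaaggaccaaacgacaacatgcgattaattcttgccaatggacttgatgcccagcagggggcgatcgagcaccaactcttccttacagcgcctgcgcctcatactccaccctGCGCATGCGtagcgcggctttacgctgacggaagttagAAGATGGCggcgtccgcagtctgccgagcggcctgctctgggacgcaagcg
Atp5pf: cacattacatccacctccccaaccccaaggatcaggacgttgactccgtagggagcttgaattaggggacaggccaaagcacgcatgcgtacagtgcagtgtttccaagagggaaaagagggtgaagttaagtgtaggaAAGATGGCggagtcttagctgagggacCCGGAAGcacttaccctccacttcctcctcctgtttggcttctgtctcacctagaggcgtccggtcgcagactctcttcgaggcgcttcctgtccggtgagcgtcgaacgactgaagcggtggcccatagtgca
Sdhd: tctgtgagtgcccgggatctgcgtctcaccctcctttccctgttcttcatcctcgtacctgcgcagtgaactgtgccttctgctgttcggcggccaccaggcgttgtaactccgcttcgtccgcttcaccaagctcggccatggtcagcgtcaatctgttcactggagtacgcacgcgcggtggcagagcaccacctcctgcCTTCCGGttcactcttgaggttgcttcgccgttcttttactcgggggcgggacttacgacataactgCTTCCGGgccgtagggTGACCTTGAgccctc
Ndufs7: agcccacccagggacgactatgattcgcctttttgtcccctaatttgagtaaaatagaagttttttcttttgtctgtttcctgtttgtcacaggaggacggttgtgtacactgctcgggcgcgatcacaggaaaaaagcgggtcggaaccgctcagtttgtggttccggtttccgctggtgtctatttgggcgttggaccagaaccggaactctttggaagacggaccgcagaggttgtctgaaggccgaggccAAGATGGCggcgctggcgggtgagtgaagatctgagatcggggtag
A match is a stretch of letters and not a bound site. Atp5pf followed the common course (r = 0.98), as did Sdhd (0.94), while Uqcrc1 (0.63) and Ndufs7 (0.18) did less, with a YY1 match in Atp5pf, Uqcrc1 and Ndufs7 alike.

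Several neighbouring lists shifted by nearly as much in females, and others by less. Genes saturated on every array were left out of these lists too, which took the cytosolic ribosome from 75 genes to 64. In females the median difference was -0.21 for 66 genes of the mitochondrial ribosome, -0.21 for 64 of the cytosolic ribosome, -0.22 for 22 of the tricarboxylic acid cycle and pyruvate dehydrogenase, -0.21 for 35 assembly factors of complexes III, IV and V, -0.21 for 11 adenine nucleotide and phosphate carriers and -0.19 for 17 genes of mitochondrial import. It was -0.15 for 20 electron carriers, -0.13 for 21 regulators of mitochondrial biogenesis and -0.08 for 16 of glycolysis. The median of the oxidative phosphorylation genes, -0.26, was the lowest of these, and whether it differs from the others was not tested. Of all these lists 3 genes were called in females: Gpd2, the mitochondrial glycerol-3-phosphate dehydrogenase, fell by 0.82 (adjusted p = 0.0401, limma), Tmem242, which helps to assemble ATP synthase, fell by 0.71 (adjusted p = 0.0418) and Perm1, a regulator of muscle oxidative genes, fell by 0.89 (adjusted p = 0.0401). With each female pool left out in turn, Gpd2 and Tmem242 had adjusted p-values from 0.0593 to 0.125 and were called in 0 of 6 fits, and Perm1 was called in 1, without sham female pool 2. In males none was called, and the medians lay between -0.15 for the cytosolic ribosome and -0.01 for the mitochondrial ribosome.

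Over the 14 arrays the level of the oxidative phosphorylation genes went with that of the cytosolic ribosome (r = 0.93, rho = 0.94), the mitochondrial ribosome (r = 0.94, rho = 0.84) and the CP epithelium markers (r = 0.89, rho = 0.82). These are descriptions over 14 arrays whose levels share the scaling of each array, so that no p is given. Without the 2 arrays farthest out on the other list r was 0.91, 0.86 and 0.73, and within scan day 2 it was 0.92, 0.93 and 0.86. The relation with the median raw signal was weaker (r = -0.52) and rested on OVX pool 3 and OOX pool 2, since r was -0.09 without them. Each level has that median subtracted, so that part of this relation is built in and no p is given.

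**Figure D5:**
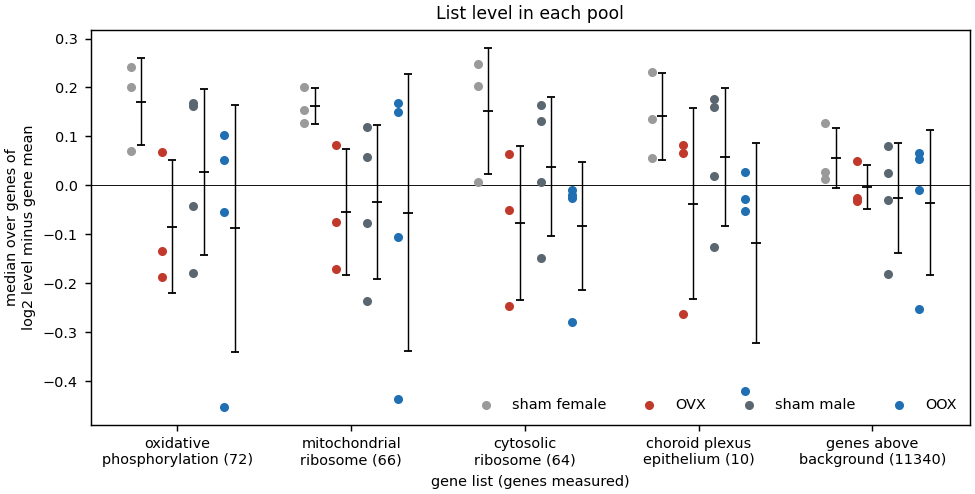
Level of 5 gene lists in each pool: the median over genes of the log2 level minus the gene's mean (vertical axis), by group, with the mean and SD beside the points. In each list OOX pool 2 is the lowest point and sham female pool 1 the highest, and genes above background as a whole span a smaller range.

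Markers of other cells were set beside these values. In bulk RNA a lower share of a cell type and less RNA per cell cannot be told apart. Of 10 CP epithelium markers not saturated on every array 0 were called in females, with a median of -0.17, and 0 in males, with -0.18. Some of them may have been saturated on some arrays. Their summed signal relative to the array median ran from 1385 to 1536 in sham females and 1079 to 1472 in OVX. In males it ran from 1208 to 1487 in sham and 1012 to 1380 in OOX. Skeletal muscle markers, whose cells use Cox6a2 and Cox8b, summed to 8.18 to 15.7 in sham females, 7.81 to 17.2 in OVX, 7.68 to 10.47 in sham males and 6.37 to 15.0 in OOX, with 10 of 11 measured and 0 called in either sex. Of 7 heart muscle markers 1 was called, Tnni3, which rose by 1.04 in OVX (adjusted p = 0.0481, limma, and 0.101 to 0.136 with a pool left out), and Myl3 was above background on no array. Of 9 spermatid markers 5 were called in males, all higher after OOX. Tnp2, Crisp2 and Hmgb4 were not well above background in any sham male pool and were at least 7.77-fold, 6.55-fold and 3.804-fold higher in OOX, where the dim side is each array's lowest signal well above background (adjusted p = 0.00158, 0.00553 and 0.00553, limma). Smcp, above background in 2 of 4 sham male pools, rose by 3.75 on the log2 scale. In females 0 of the 9 were called, while 8 had higher means after OVX, 6 of them at an unadjusted p under 0.05, with a median difference of 2.46. Between the female pools that shared a slide the median was 0.016. Within the slide that held both male groups it was 4.04. The summed signal of these markers ran from 0.735 to 3.14 in sham females, 2.996 to 4.19 in OVX, 0.941 to 1.13 in sham males and 2.49 to 4.31 in OOX, and Odf1 and Akap4 were above background on no array.

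Most markers of connective tissue and brain had lower means in OVX and higher means in OOX. Of all genes, 58.3% were lower in OVX and 46.7% in OOX. All 7 fibroblast markers had lower means in OVX, with a median of -0.61, and all 7 higher means in OOX, with 0.49. Their sums ran from 410.4 to 484.8 in sham females, 238 to 360.9 in OVX, 216.4 to 556.6 in sham males and 316.1 to 456.2 in OOX, so that the female groups did not overlap and the male groups did. Of these Mgp was called and fell by 0.82 in OVX (adjusted p = 0.0489, limma, and 0.0789 to 0.137 with a pool left out). Of 11 neuron markers 10 had lower means in OVX (median -0.69) and 11 higher means in OOX (median 0.47), and their sums, 4.55 to 71.4 in sham males alone, overlapped between groups in both sexes. Of 7 astrocyte markers 6 were lower in OVX (median -0.44) and 7 higher in OOX (0.34), and of 8 oligodendrocyte markers 5 were lower in OVX (-0.12) and 8 higher in OOX (0.36). None of the neuron, astrocyte or oligodendrocyte markers was called. Within the slide that held both male groups, with OOX pool 4, the medians of the brain markers had the opposite sign. They were -0.94 for neuron, -0.64 for astrocyte and -0.29 for oligodendrocyte markers, and 0.78 for fibroblast markers. Between the female pools that shared a slide they were -2.43, -0.84, -0.125 and -0.31 in the same order. The 4 usable red blood cell markers were higher in OVX (0.56) and lower in OOX (-0.20), and 0 were called. Other lists did not all share the pattern. The 9 endothelium markers had medians of 0.06 in OVX and -0.10 in OOX, and the 6 mural markers 0.095 and 0.275. The 10 macrophage markers had 0.002 and 0.188, the 4 brown fat markers -0.015 and 0.106, and 0 of these were called. The part of these markers in the differences of the oxidative phosphorylation genes was not tested.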

How the data were processed

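RNA of CP pools was hybridised to 1-colour Agilent rat arrays. Each deposited scanner file gives spot by spot the intensity of the array, from which the authors' scanner software had already subtracted the background. The deposited value table holds log2 values that the authors centred with BRB-ArrayTools, and it was used as an alternative. Here outlier spots were left out, spots of a probe averaged, the log2 signal taken and the array median subtracted. Accessions were named through the RefSeq gene table of assembly GRCr8, which gave the names. The array annotation used rn4, so that the positions printed for promoters are those of GRCr8 genes and not of probes, and 18004 of 30367 rat probes took a name. Each gene was read from its brightest probe that was not saturated on every array. Of 14 genes with further usable probes, another probe had the opposite sign for 1 in females (Ndufab1) and 5 in males.

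Groups were compared within each sex with limma 3.58.1 in R 4.3.3, without covariates, and p-values were adjusted over all genes and unnamed probes at a threshold of 0.05. Fits were tested on simulated data. Relations across arrays used 100000 permutations in SciPy 1.17.1. The value behind normexp (offset 50) was the median spot signal, since the files used here give no mean signal. The text names, for each complex, direction and sex, up to 2 genes with the largest test statistic, the tissue isoforms, the catalytic subunits and Atp5if1, and of other lists the called genes, up to 4 a list and sex. 1 gene that this rule names is counted but not reported here. The genes, lists and tests were chosen with earlier results of these data known. The number of arrays limits the precision. No columns of per-sample values were left unused.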

Additional observations from a re-analysis of the deposited data

Results flagged for a closer look

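In groups of 4 pools, 36 levels (35 genes and the summary over the 72 genes) were searched for a pool far from the other 3, by its gap to the nearest pool over the range of the group. Of 72 such groups 3 were marked, and chance alone marks about 1 in 20. Cox7a2 in OOX pool 2 was at 7.60, with a gap of 0.879 of the range, and Atp5f1b in OOX pool 2 was at 6.91, with 0.882, and in both the pool was the lowest of the group. Cox6b2 in sham male pool 4 was at 6.88, with 0.955, and was the highest.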

How the results depend on the processing

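No gene of oxidative phosphorylation was called under any alternative in females, males or their difference. The female median of -0.256 was -0.078 with quantile normalization, 0.013 with the slide as a block and -0.105 with the scan day as a block, -0.158 when centred on genes above background, and -0.329 to -0.205 with a pool left out. The male median of -0.113 was 0.091 with the slide as a block, -0.019 with quantile normalization, -0.018 with array weights, -0.042 with normexp, -0.065 over 54 genes read from probes saturated on no array, and -0.178 to 0.009 with a pool left out. The replicate numbers were not taken to pair the pools. The deviations of pools with the same number correlated between -0.313 and 0.143, which cannot exclude a pairing, since slides and scan days differ. With the replicate block 0 of the 72 genes were called in either sex and in the difference, the medians stayed at -0.256 and -0.113, and the calls over all genes went from 942 to 0 in females and from 13 to 8 in males. The scan day as a block could not be fitted in males, whose arrays share a day. Some differences of named genes, none of them called, changed sign, and the cause was not tested. The slide block rests on OVX pool 1 against sham female pool 3 in females. In males it rests on OOX pool 4 against sham male pools 1 and 2. With the slide as a block, females gave 0.021 for Uqcrb, 0.039 for Uqcr11, -0.053 for Cox6a2, 0.045 for Atp5mk, 0.011 for Cox6b1, 0.078 for Cox6b2, 0.048 for Cox7a2, 0.017 for Ndufa4 and 0.013 for Uqcrfs1, and males gave 0.131 for Sdhb, 0.11 for Sdha, 0.435 for Cox4i2, 0.177 for Cox6b1, 0.084 for Cox6b2, 0.327 for Cox7a2l, 0.049 for Ndufs1, 0.083 for Ndufv1, 0.042 for Uqcrfs1 and 0.091 for Atp5if1. With quantile normalization, females gave 0.01 for Ndufv1, 0.066 for Sdha and 0.036 for Uqcrc1, and males 0.002 for Ndufb9, 0.011 for Cox5b and 0.018 for Ndufa4. In males, array weights gave -0.078 for Uqcrq, 0.076 for Cox4i2, 0.012 for Cox6b1, 0.01 for Cox7a2l, 0.072 for Uqcrfs1 and 0.046 for Atp5if1, normexp gave 0.024 for Cox4i2, 0.035 for Uqcrfs1 and 0.018 for Atp5if1, and probes saturated on no array gave 0.011 for Uqcrb. 2 scalings were chosen after seeing the data: centring on the 72 genes gave 0.046 for Cox6b2, 0.091 for Sdha, 0.1 for Uqcrc1 and 0.019 for Uqcrfs1 in females and 0.012 for Cox4i2 in males, and centring on genes above background gave 4.9e-05 for Uqcrc1 in females. With a pool left out, males ranged from -0.138 to 0.031 for Atp5if1, -0.169 to 0.114 for Cox4i2, -0.388 to -0.261 for Cox5b, -0.173 to 0.057 for Cox6b1, -0.314 to -0.082 for Cox6b2, -0.211 to 0.049 for Cox7a2l, -0.024 to 0.469 for Cox8b, -0.386 to -0.239 for Ndufa4, -0.32 to -0.209 for Ndufb9, -0.206 to -0.019 for Ndufs1, -0.197 to -0.032 for Ndufv1, -0.213 to 0.012 for Sdha, -0.268 to -0.023 for Sdhb, -0.114 to 0.246 for Sdhc, -0.353 to -0.163 for Uqcrb, -0.004 to 0.182 for Uqcrc2, -0.157 to 0.057 for Uqcrfs1 and -0.029 to 0.108 for Uqcrq, and females from -0.505 to -0.283 for Atp5mk, 0.012 to 0.42 for Cox6a2, -0.41 to -0.219 for Cox6b1, -0.322 to 0.004 for Cox6b2, -0.504 to -0.265 for Cox7a2, -0.183 to 0.356 for Cox8b, -0.395 to -0.126 for Ndufa4, -0.269 to -0.155 for Ndufv1, -0.15 to -0.031 for Sdha, -0.323 to -0.11 for Uqcr11, -0.568 to -0.326 for Uqcrb, -0.172 to -0.035 for Uqcrc1 and -0.23 to -0.102 for Uqcrfs1. Saturation limits 24 of the 72 genes to lower bounds on some arrays. Cox5b, Ndufa4 and Ndufb9 were saturated on 10, 12 and 11 arrays, and their values in this section are not read as differences.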
